A study of Homo sapiens with 12 samples.

Results

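Cadherins are calcium-dependent adhesion proteins, and 8 genes of their superfamily were followed in MDA-MB-231 cells that carried a short hairpin RNA (shRNA) against HDAC5 or LSD1. The genes were the classical cadherins CDH1 (E-cadherin), CDH2 (N-cadherin), CDH3 (P-cadherin), CDH5 (VE-cadherin), CDH6 (K-cadherin) and CDH11 (OB-cadherin), the membrane-anchored CDH13 (T-cadherin) and the protocadherin PCDH9. A probe set was taken when the platform annotation gave it 1 of these symbols and no other, which yielded 15 probe sets for 7 of the 8 genes, out of 22215 tested. They were 2 each for CDH1, CDH2, CDH11 and PCDH9, 1 each for CDH3 and CDH5, and 5 for CDH6. CDH13 was not analysed here.

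MDA-MB-231 is a widely used line of triple-negative human breast cancer cells with a mesenchymal-like shape. The hairpin targets were HDAC5, a histone deacetylase of class IIa, and the histone lysine demethylase LSD1, whose gene is KDM1A. The series holds 12 arrays in 4 groups of 3 biological replicates: HDAC5 shRNA (replicates 1 to 3), its scramble shRNA set (1 to 3), LSD1 shRNA (1 to 3) and the scramble set tagged for LSD1 (A to C). Every group received lentiviral particles and a hairpin, the scramble groups included. One scramble set has LSD1 in its name and the other has no tag. The untagged set was placed with HDAC5 shRNA on that ground and from the sequence of treatments in the study's design text. The labels give neither the hairpin sequences nor the time after transduction, and they do not say whether the replicates were separate cultures, so p-values measure the spread between these arrays, which may be technical.

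Classical cadherins bind the same kind of cadherin on the neighbouring cell, and their cytoplasmic tails hold p120-catenin and beta-catenin, which connect to actin through alpha-catenin. In breast tissue E-cadherin is typical of luminal epithelium and P-cadherin of myoepithelium. Carcinoma cells of mesenchymal kind often have little E-cadherin and carry N-cadherin or cadherin-11, a change known as cadherin switching. Protocadherins such as PCDH9 are mostly studied in the nervous system and lack the catenin-binding tail of the classical members.

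All values are log2 expression values as deposited, and a change is the mean over shRNA arrays minus the mean over the scramble arrays of the same experiment. A probe set was called changed when limma's Benjamini-Hochberg adjusted p over all 22215 probe sets was under 0.05, in a fit of the 6 arrays of the experiment. The lower quartile of an array was 4.59 to 4.65 in the HDAC5 experiment and 5.18 to 5.26 in the LSD1 experiment. Values under it lie where background limits the signal, and changes there are not exact in size. Array medians also differed (6.58 to 6.64 in the HDAC5 experiment, 7.05 to 7.15 in the LSD1 experiment), so levels were compared within an experiment. HDAC5 was 6.29 ± 0.18 with HDAC5 shRNA and 7.40 ± 0.17 with scramble (SD, n = 3 each), and KDM1A was 6.63 ± 0.17 with LSD1 shRNA and 9.72 ± 0.09 with scramble. All 10 MDA-MB-231 markers (VIM, CD44, AXL and others) lay above the quartile on every array. PGR of the luminal list, and VWF, TIE1, EMCN, SELE and ERG of the endothelial list, lay under it on all 12 arrays. Most luminal markers were above it: 10 of 11 on every array of each HDAC5-experiment group, and 9 of 11 in each LSD1-experiment group. Of the 11 endothelial markers, 4 were above it on every array of each HDAC5-experiment group and 5 in each LSD1-experiment group.

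With LSD1 shRNA, CDH3 was 3.94-fold higher, CDH11 was 4.01- to 13-fold lower by its 2 probe sets and PCDH9 was 2.06-fold higher by 1 of 2 probe sets, each called changed. CDH1 was higher by 2.22 on the log2 scale by 1 probe set, with its scramble values under the lower quartile. It differed by 0.20, not called, by the other, which lay mostly under the quartile. CDH2, CDH5 and CDH6 were not called. With HDAC5 shRNA, CDH1, CDH3 and CDH11 fell by at most 0.46 and PCDH9 rose by 0.76. PCDH9 was thus called upward with both hairpins, CDH11 downward with both, and CDH1 and CDH3 upward with LSD1 shRNA and downward with HDAC5 shRNA. In the HDAC5 experiment CDH1 and PCDH9 were each called by 1 of 2 probe sets, and all CDH1 values lay under the quartile. With 1 spread estimated over all 12 arrays, the HDAC5 shRNA calls of CDH1, CDH3 and CDH11 were lost.

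In counts, LSD1 shRNA changed 5 of the 15 probe sets, 3 up and 2 down, where the whole table had 3.81% called, 2.11% up and 1.7% down. HDAC5 shRNA also changed 5 of 15, 1 up and 4 down, but 38.2% of all probe sets were called in that comparison, 19% up and 19.2% down. The cadherin count with HDAC5 shRNA was therefore near the background. The genes were chosen with earlier results of these data known, so the LSD1 count is not a test of cadherins as a set. The same holds for the gene lists below. The LSD1 shRNA and scramble arrays did not overlap for 7 of the 15 probe sets (24.5% of all), and the HDAC5 shRNA and scramble arrays for 5 of 15 (46% of all). The median change of the 15 was 0.16 with LSD1 shRNA and -0.05 with HDAC5 shRNA, beside 0.00 and -0.01 over all probe sets.

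**Figure D1:**
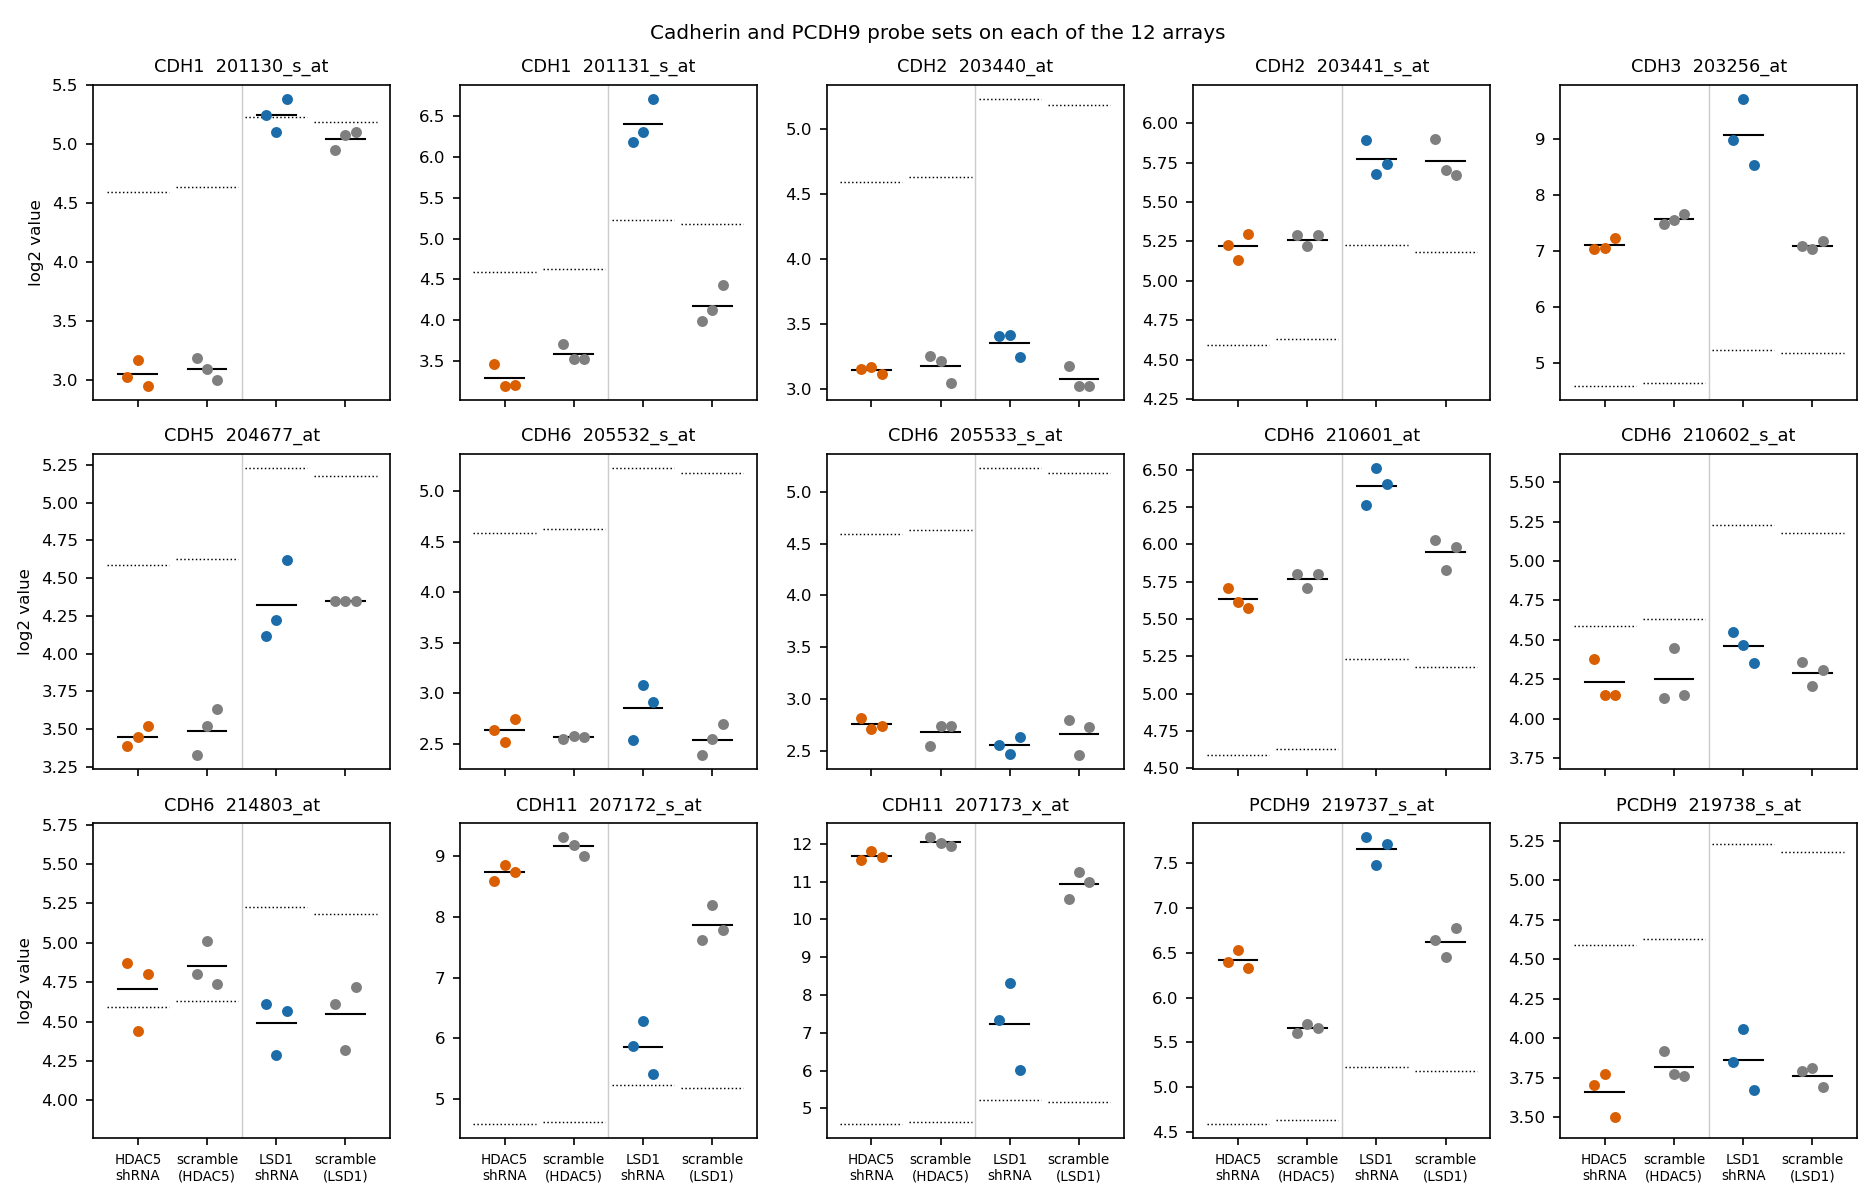
Each panel shows 1 probe set, with a point for each of the 12 arrays, a bar at the group mean and a dotted line at the lowest lower quartile of the group's arrays; the vertical axis is the log2 value, and axis ranges differ between panels. LSD1 shRNA arrays of CDH1 201131_s_at lie between 6.18 and 6.71 and those of its scramble set between 3.99 and 4.43, while CDH11 207173_x_at lies between 6.02 and 8.33 with LSD1 shRNA and between 10.54 and 11.26 with scramble.

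E-cadherin, CDH1, forms the adherens junctions of epithelial cells. Its probe set 201131_s_at had log2 values of 6.18, 6.31 and 6.71 with LSD1 shRNA (replicates 1, 2 and 3), against 3.99, 4.13 and 4.43 with scramble (replicates A, B and C). All 3 LSD1 shRNA arrays lay above the quartile and all 3 scramble arrays under it, so the scramble level is limited by background. This gave a change of 2.22 (SE 0.17) with a limma adjusted p of 0.00158, a 4.64-fold difference whose size is not exact. The other probe set, 201130_s_at, had 5.24, 5.10 and 5.38 with LSD1 shRNA and 4.95, 5.07 and 5.10 with scramble. It lay near background, with LSD1 shRNA replicate 3 the 1 array above the quartile. Its groups met at 5.10, and its change of 0.20 (SE 0.09, limma adjusted p = 0.296) was not called. The rise of CDH1 thus rests on 1 of its 2 probe sets, and the mean of both changed by 1.21.

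With HDAC5 shRNA the same CDH1 probe set 201131_s_at had 3.46, 3.20 and 3.21, against 3.71, 3.53 and 3.53 with scramble. All 6 values were under the lower quartile, which was at least 4.59 on those arrays. The groups did not overlap, and the change of -0.30 (SE 0.09, limma adjusted p = 0.0225) was called at this low signal. The call was lost without scramble array 1 (adjusted p = 0.0949), HDAC5 shRNA array 2 (0.0949) or HDAC5 shRNA array 3 (0.1). Probe set 201130_s_at, also under the quartile on all 6 arrays, differed by -0.05 and was not called (adjusted p = 0.689), nor was the mean of both (-0.17, adjusted p = 0.069).

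P-cadherin, CDH3, is a classical cadherin of basal and myoepithelial cells, and its gene lies next to CDH1 on chromosome 16 in the RefSeq gene order. Its 1 probe set, 203256_at, had 8.98, 9.71 and 8.52 on LSD1 shRNA arrays 1, 2 and 3, against 7.08, 7.03 and 7.17 on the scramble arrays. The LSD1 shRNA arrays were all higher and spread more widely, with replicate 2 the highest. CDH3 thus rose by 1.98 (SE 0.28, limma adjusted p = 0.0176), or 3.94-fold, and all values were above the quartile. With HDAC5 shRNA it had 7.03, 7.05 and 7.23, against 7.48, 7.55 and 7.65 with scramble. All HDAC5 shRNA arrays were lower, by -0.46 on average (SE 0.07, limma adjusted p = 0.00092).

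The call of CDH3 with LSD1 shRNA was lost without scramble array A, B or C (adjusted p = 0.0665, 0.0965 and 0.101) or LSD1 shRNA array 1 (0.0747), with changes of 1.95 to 2.02, and kept without LSD1 shRNA array 2 or 3 (1.66 and 2.25).

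OB-cadherin, CDH11, is a type II classical cadherin of mesenchymal cells such as osteoblasts and fibroblasts. Probe set 207173_x_at had 7.35, 8.33 and 6.02 with LSD1 shRNA, against 10.54, 11.26 and 10.98 with scramble. Every LSD1 shRNA array was more than 2 log2 units under every scramble array, and LSD1 shRNA replicate 3 was the lowest of all. It fell by 3.70 (SE 0.54) with a limma adjusted p of 0.0195, a 13-fold decrease and rank 2 among the 378 called decreases of the comparison. Probe set 207172_s_at had 5.88, 6.28 and 5.42 with LSD1 shRNA and 7.62, 8.20 and 7.78 with scramble, a change of -2.01 (SE 0.24, limma adjusted p = 0.0107), or 4.01-fold. Both probe sets put LSD1 shRNA replicate 2 highest and replicate 3 lowest, and scramble B highest. The x in the name of 207173_x_at marks probes that can match other transcripts, and the 2 probe sets gave the same direction with different sizes. In RNA from a whole culture, fewer cells with CDH11 and less CDH11 RNA per cell cannot be told apart.

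The CDH11 decrease also needed most arrays to stay past the threshold. Probe set 207173_x_at was not called without scramble A, B or C (adjusted p = 0.0594, 0.102 and 0.118) or LSD1 shRNA array 1 (0.079), nor was 207172_s_at without scramble B or C (0.0571 and 0.072) or LSD1 shRNA array 1 (0.0614). The change itself stayed between -4.25 and -3.09 for the first and between -2.21 and -1.79 for the second.

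With HDAC5 shRNA, CDH11 207173_x_at had 11.57, 11.80 and 11.65, against 12.17, 12.02 and 11.95 with scramble. CDH11 207172_s_at had 8.59, 8.85 and 8.74, against 9.31, 9.19 and 9.00. In both the groups did not overlap, and the changes were -0.37 (SE 0.07, limma adjusted p = 0.00198) and -0.44 (SE 0.09, limma adjusted p = 0.00389). On the scramble arrays CDH11 was higher in the HDAC5 experiment than in the LSD1 experiment by 1.12 (207173_x_at) and 1.30 (207172_s_at), although the array medians there were lower. The scramble set and the experiment cannot be told apart there.

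PCDH9, a protocadherin gene on chromosome 13, was the member called upward with both hairpins. Probe set 219737_s_at had 7.79, 7.48 and 7.72 with LSD1 shRNA, against 6.64, 6.45 and 6.78 with scramble, a change of 1.04 (SE 0.13, limma adjusted p = 0.011). It had 6.40, 6.53 and 6.33 with HDAC5 shRNA, against 5.60, 5.71 and 5.66 with scramble, a change of 0.76 (SE 0.07, limma adjusted p = 3.69e-05), or 1.7-fold. In both experiments every shRNA array was above every scramble array, and all 12 values were above the quartile. The further probe set 219738_s_at lay under the quartile on all 12 arrays and differed by 0.10 with LSD1 shRNA and by -0.16 with HDAC5 shRNA, neither called (adjusted p = 0.69 and 0.177). The mean of both probe sets changed by 0.57 with LSD1 shRNA and by 0.30 with HDAC5 shRNA. The call with LSD1 shRNA was lost without scramble B (adjusted p = 0.0616) or LSD1 shRNA array 1 or 3 (0.06 and 0.0532), and the call with HDAC5 shRNA was kept whichever array was left out.

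RefSeq's promoter table for GRCh38.p14 held entries for 2 of the 8 genes, PCDH9 and CDH2, so the stretch before the start is shown for the member that was higher with both hairpins and for one that was called with neither. The 250 bases upstream of the gene start are chr13:67230337-67230586 for PCDH9 and chr18:28177131-28177380 for CDH2, both on the minus strand. Capitals mark the GC box GGGCGG, the CCAAT box CCAAT and the E-box CAGGTG, a recognition sequence of SNAI and ZEB repressors, searched on both strands.
PCDH9: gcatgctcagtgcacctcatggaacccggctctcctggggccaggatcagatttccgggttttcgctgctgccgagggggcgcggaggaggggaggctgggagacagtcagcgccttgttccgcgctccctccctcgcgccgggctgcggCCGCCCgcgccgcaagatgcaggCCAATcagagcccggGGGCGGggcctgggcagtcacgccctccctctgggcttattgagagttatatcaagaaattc
CDH2: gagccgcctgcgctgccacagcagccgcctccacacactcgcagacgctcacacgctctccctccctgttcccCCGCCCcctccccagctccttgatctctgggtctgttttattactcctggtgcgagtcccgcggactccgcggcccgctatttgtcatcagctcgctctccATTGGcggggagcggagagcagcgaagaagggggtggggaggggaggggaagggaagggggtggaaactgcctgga
PCDH9 held 2 matches of GGGCGG and 1 of CCAAT, with 72 bases between the CCAAT match and the start. CDH2 held 1 of each, its CCAAT match on the other strand 71 bases before the start. CAGGTG was in neither window, and no match overlapped another. Among all 35116 promoter windows of this length, 42.6% held GGGCGG, 32% held CCAAT and 17.5% held CAGGTG.

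N-cadherin, CDH2, is the cadherin most often named as the counterpart of E-cadherin in cadherin switching. Its brighter probe set 203441_s_at had 5.89, 5.68 and 5.74 with LSD1 shRNA, against 5.90, 5.70 and 5.67 with scramble. It had 5.23, 5.13 and 5.30 with HDAC5 shRNA, against 5.29, 5.22 and 5.29 with scramble. The groups overlapped in both experiments. The changes were 0.01 with LSD1 shRNA (95% interval -0.22 to 0.23) and -0.05 with HDAC5 shRNA (95% interval -0.20 to 0.11), so a difference of the size seen in CDH1, CDH3 or CDH11 with LSD1 shRNA lay outside the interval. The dim probe set 203440_at had 3.41, 3.42 and 3.25 with LSD1 shRNA and 3.18, 3.03 and 3.03 with scramble. These groups did not overlap, but all values were under the quartile and the change of 0.28 was not called (limma adjusted p = 0.11).

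K-cadherin, CDH6, a type II cadherin of kidney and other tissues, had 5 probe sets, and 3 of them lay under the quartile on all 12 arrays. The 1 probe set above it throughout, 210601_at, had 6.26, 6.51 and 6.40 with LSD1 shRNA, against 6.03, 5.83 and 5.98 with scramble. The LSD1 shRNA arrays were all higher, and the change of 0.44 (95% interval 0.21 to 0.67) did not pass over all probe sets (limma adjusted p = 0.0603). It passed in 2 of 13 alternatives, with dim probe sets left out (0.0498) and with 1 spread estimated over all 12 arrays (0.00385). It passed in no fit that left out 1 array (limma adjusted p = 0.0897 to 0.192). The mean of the 5 CDH6 probe sets differed by 0.15 and was not called (limma adjusted p = 0.301). With HDAC5 shRNA 210601_at differed by -0.14 (adjusted p = 0.142). Over the 5 CDH6 probe sets changes ran between -0.11 and 0.44 with LSD1 shRNA and between -0.14 and 0.08 with HDAC5 shRNA.

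VE-cadherin, CDH5, is the adherens junction cadherin of endothelium, and its gene lies next to CDH11 on chromosome 16. Its probe set 204677_at was under the quartile on all 12 arrays, with 4.12, 4.22 and 4.62 for LSD1 shRNA and 4.35 on each of the 3 scramble arrays. It had 3.39, 3.45 and 3.52 with HDAC5 shRNA and 3.33, 3.52 and 3.63 with scramble. The groups overlapped, and the changes of -0.03 (95% interval -0.34 to 0.27) and -0.04 (95% interval -0.23 to 0.15) were not called (adjusted p = 0.916 and 0.752).

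**Figure D2:**
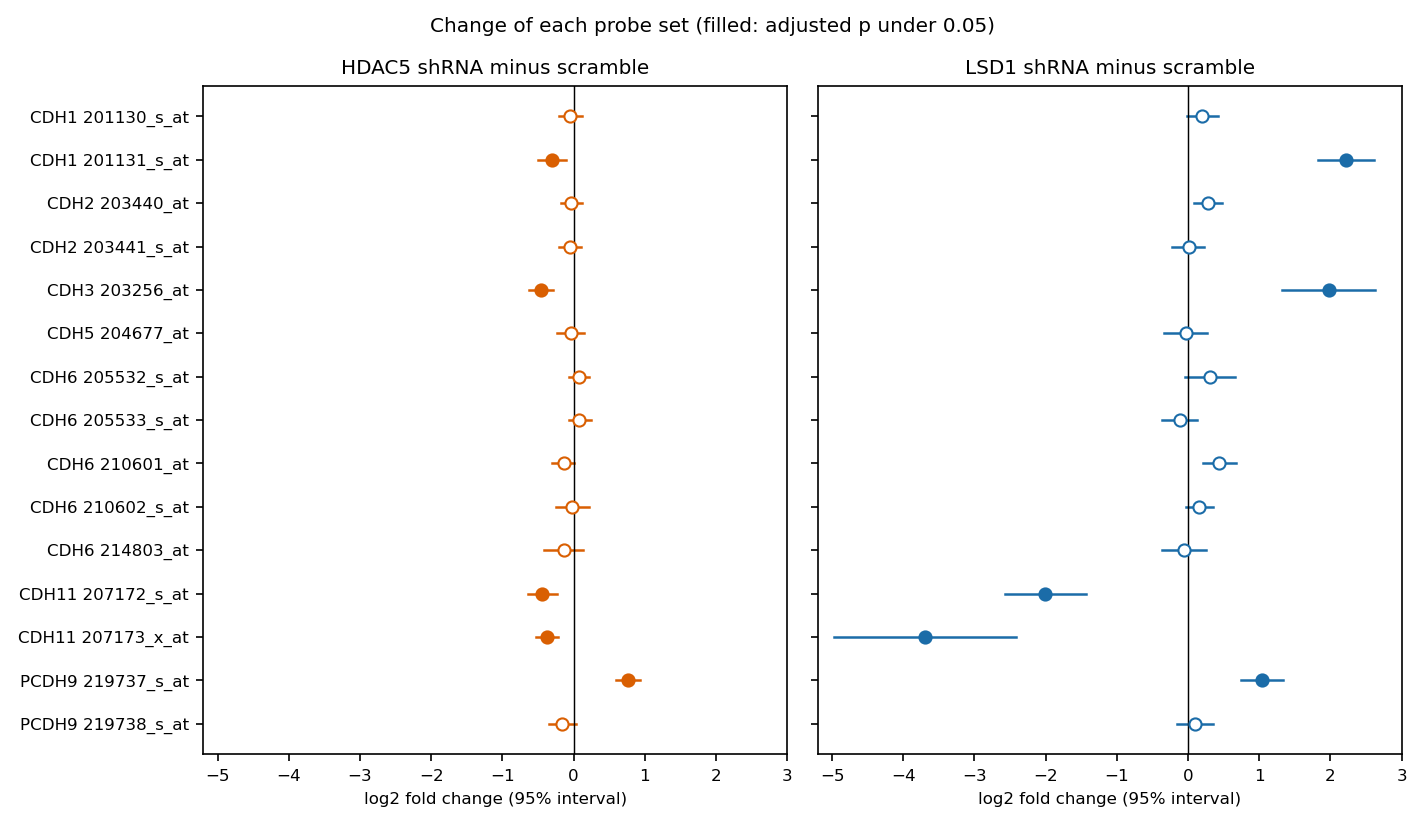
Points give the log2 fold change of each of the 15 probe sets, shRNA minus scramble, with bars for limma's 95% interval and filled points for an adjusted p under 0.05; HDAC5 shRNA is on the left and LSD1 shRNA on the right. Changes with HDAC5 shRNA lie between -0.46 and 0.76, and those with LSD1 shRNA between -3.70 and 2.22.

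**Figure D3:**
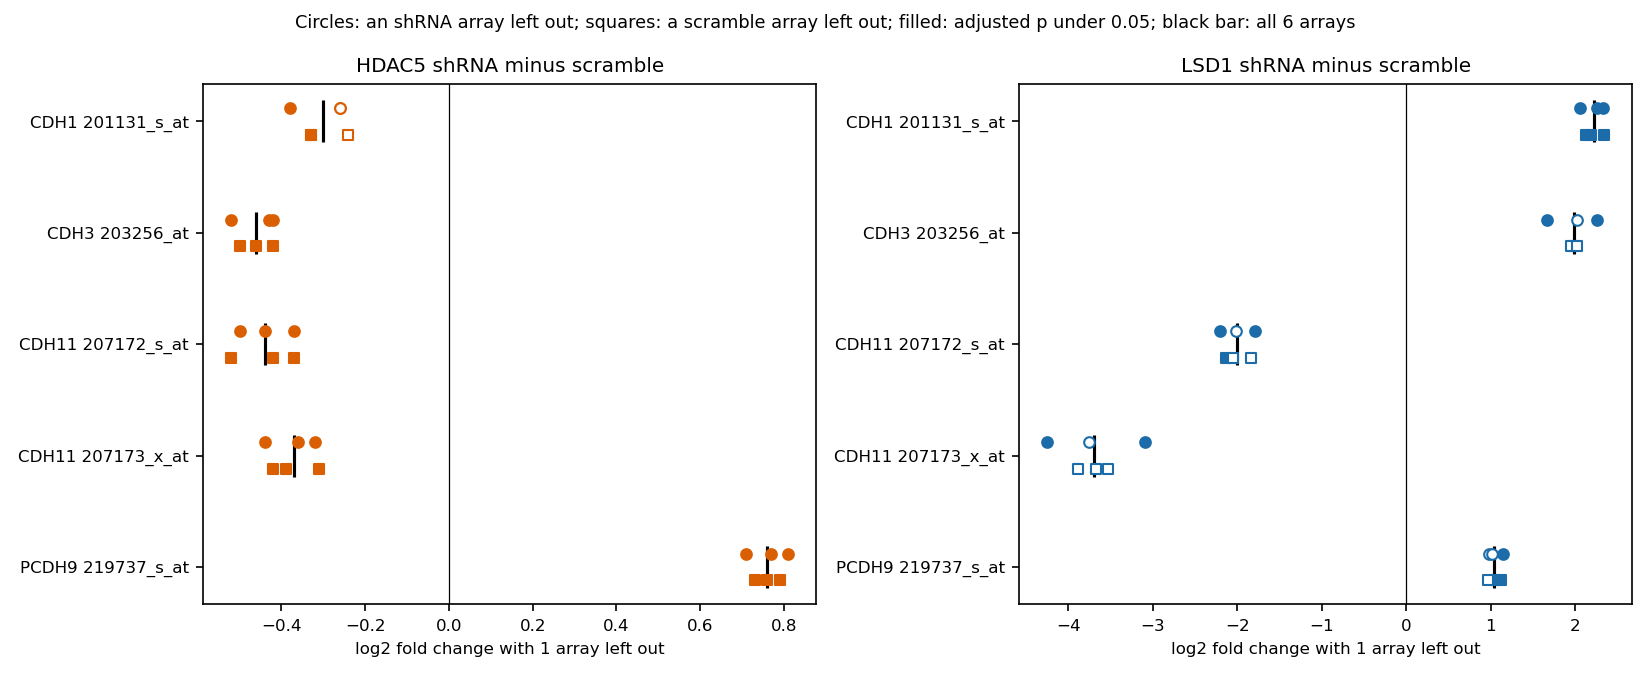
For the 5 probe sets called in each comparison, points give the log2 fold change after leaving out 1 array, circles for an shRNA array and squares for a scramble array, filled where the adjusted p stayed under 0.05; the horizontal scales differ. No value crosses 0, and in the LSD1 comparison CDH1 201131_s_at is the probe set called in all 6 fits.

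The changes with the 2 hairpins were then set against each other in a fit of all 12 arrays, as the change with HDAC5 shRNA minus the change with LSD1 shRNA. In this test 6 of the 15 cadherin probe sets passed, beside 26.9% of all probe sets. The difference was -2.51 for CDH1 201131_s_at (SE 0.20, limma adjusted p = 1.14e-05) and -2.44 for CDH3 (SE 0.30, adjusted p = 0.000174). For CDH11 it was 3.32 (207173_x_at, SE 0.58, adjusted p = 0.00137) and 1.57 (207172_s_at, SE 0.28, adjusted p = 0.00144). These 4 passed whichever of the 12 arrays was left out. CDH6 210601_at differed by -0.59 (adjusted p = 0.00322), but the mean of the CDH6 probe sets differed by -0.18 and was not called (adjusted p = 0.216). The dim CDH2 203440_at differed by -0.31 (adjusted p = 0.049), and the call was lost under 13 of 16 alternatives (adjusted p = 0.0216 to 0.173 over all 16). The difference for PCDH9 219737_s_at was -0.28 (SE 0.15, adjusted p = 0.194) and did not pass, which does not show that the 2 changes were equal. The mean of the PCDH9 probe sets differed by -0.27 and did pass (adjusted p = 0.0492).

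The groups of the HDAC5 comparison also differed in 1 measure related to RNA quality. The signal of ACTB probes near the 3′ end minus that near the 5′ end, which grows with RNA degradation, was 0.68 ± 0.08 with HDAC5 shRNA and 0.90 ± 0.06 with scramble (exact permutation p = 0.1, two-sided, the smallest that 3 against 3 allow). It was 1.43 ± 0.12 with LSD1 shRNA and 1.30 ± 0.06 with scramble (exact permutation p = 0.2). Its part in the cadherin values was not tested. When all 12 arrays shared 1 spread, PCDH9 219737_s_at was the 1 cadherin probe set still called with HDAC5 shRNA, while CDH3 (adjusted p = 0.153), CDH11 (0.135 and 0.591) and CDH1 (0.16) were not. With LSD1 shRNA the same setting called 7 of 15.

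The neighbours of the changed cadherin genes were examined on the RefSeq gene order, 3 measured genes on each side with the brightest probe set of each, a choice made after the values were seen. With LSD1 shRNA none of the 6 genes around CDH3 and CDH1 was called by limma (0 at an unadjusted p under 0.05), beside 3.81% of all probe sets. Among them were SMPD3 (-0.04), a sphingomyelinase gene, on one side and SNTB2 (0.09), a syntrophin gene, on the other. Around CDH11 none of 6 was called either (0 unadjusted), including the cadherin genes CDH8 (0.05) and CDH5. At so low a share over all probe sets, 0 of 6 does not set these genes apart from others. With HDAC5 shRNA, 2 of 6 were called around CDH3 and CDH1, 3 of 6 around CDH11 and 2 of 6 around PCDH9, beside 38.2% of all probe sets. TK2, the mitochondrial thymidine kinase gene, and BEAN1, both beyond CDH5, fell by 1.19 and 1.81 with HDAC5 shRNA. Around PCDH9, TDRD3 fell by 0.59 with LSD1 shRNA (1 of 2 probe sets called, limma adjusted p = 0.0195), and KLHL1 on the other side differed by 0.11 and was not called. Also near PCDH9, BORA rose by 0.92 with HDAC5 shRNA (limma adjusted p = 5.21e-06). DACH1 there fell by 0.39 with HDAC5 shRNA (1 of 2 probe sets called, limma adjusted p = 0.00162).

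**Figure D4:**
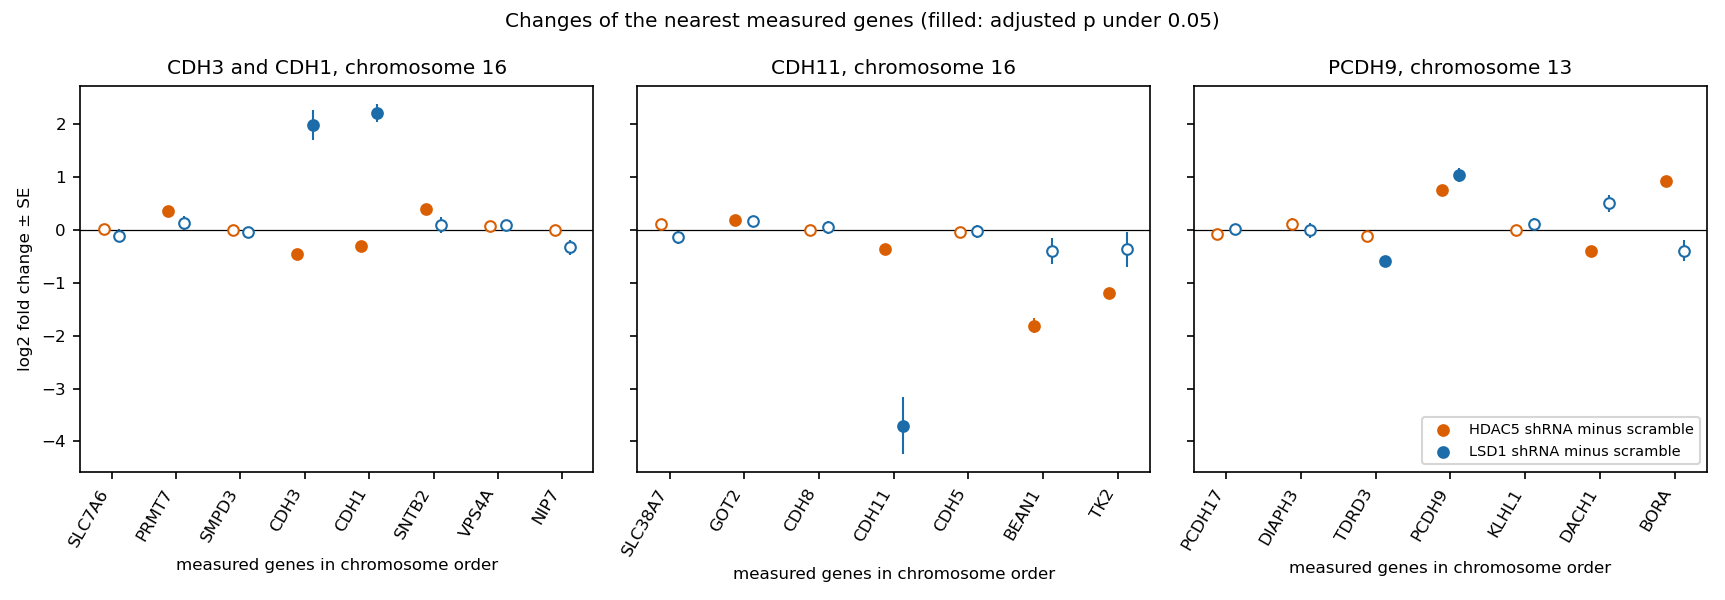
Log2 fold changes ± limma's SE are given for the changed cadherin genes (their most changed probe set) and the 3 nearest measured genes on each side (brightest probe set), in chromosome order, with orange for HDAC5 shRNA, blue for LSD1 shRNA and filled points for an adjusted p under 0.05. With LSD1 shRNA, CDH3 and CDH1 stand at 1.98 and 2.22 between neighbours that lie from -0.33 to 0.13.

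Over the 12 arrays, each value taken relative to the scramble mean of its own experiment, CDH1 201131_s_at and CDH3 had a Pearson correlation of 0.93, CDH1 and CDH11 207173_x_at one of -0.94, and CDH3 and CDH11 one of -0.81. PCDH9 correlated at 0.63 with CDH1. These are descriptions over 12 arrays that fall in 4 groups, and the group means make up most of them. Among 1120 probe sets with an SD of at least 0.5 on this scale, the genes most like CDH1 were RUNX1T1, SYBU and TDO2 (r = 0.98 each). Those most like CDH3 were RNF128, SELENOP and ADGRF5 (0.99 each), and those most like CDH11 were IGFBP2, BACE2 and CD24 (0.98 each). For PCDH9 they were the interferon-induced gene IFI44 (0.95), the histone gene H2AC6 (0.95) and the kinase gene STYK1 (0.94). IFI44 changed by 1.31 with LSD1 shRNA and 1.00 with HDAC5 shRNA, and STYK1 by 1.17 and 1.06, all called. H2AC6 changed by 1.41 with HDAC5 shRNA, called, and differed by 1.64 with LSD1 shRNA, not called (limma adjusted p = 0.0572).

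Among other cadherin genes, 22 probe sets of 18 genes were measured and 2 rose with LSD1 shRNA, with none down (9.09% called, beside 3.81% of all probe sets, median 0.03). CDH18, a type II cadherin gene of the central nervous system on chromosome 5, had 7.51, 7.78 and 7.72 with LSD1 shRNA, against 4.40, 5.53 and 5.69 with scramble. Its change was 2.46 (SE 0.32, limma adjusted p = 0.014), with scramble A under the quartile. CDH10, another neuronal type II cadherin gene on chromosome 5, had 4.81, 5.30 and 4.83 with LSD1 shRNA and 4.04, 3.87 and 4.18 with scramble. Its change was 0.95 (SE 0.15, limma adjusted p = 0.0246), with replicate 2 the 1 array above the quartile. The CDH18 call was lost without scramble B or LSD1 shRNA array 1 or 3, and the CDH10 call without any array but LSD1 shRNA replicate 2. With HDAC5 shRNA neither was called, and 2 of the 22 fell (9.09%, beside 38.2% of all called): CLSTN3, a calsyntenin gene (-0.39, SE 0.07), and CDH12 (-0.20, SE 0.07), which is under the quartile. The CDH12 call was lost without any array but scramble 2, and with 1 spread over 12 arrays (adjusted p = 0.0613).

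Protocadherins and large cadherins counted 39 probe sets of 27 genes. None was called by limma with LSD1 shRNA (4 at an unadjusted p under 0.05, median 0.02), while 4 rose and 5 fell with HDAC5 shRNA (23.1% called, beside 38.2% of all probe sets, median -0.04). PCDH7, a delta protocadherin like PCDH9, had 7.11, 7.12 and 7.21 with HDAC5 shRNA, against 5.72, 5.24 and 5.66 with scramble. PCDH7 rose by 1.60 (SE 0.12, limma adjusted p = 7.16e-06), and of its 4 probe sets 3 rose and 1 fell (-0.30). The planar polarity gene CELSR1 fell by 0.94 (SE 0.05, limma adjusted p = 1.43e-06), although its 2 further probe sets were not called. The giant cadherin gene FAT4 fell by 0.70 (SE 0.07) and CELSR2 by 0.41 (SE 0.07). Of 23 probe sets of desmosomal cadherins and plaque proteins, none was called by limma with LSD1 shRNA (3 unadjusted), and 3 rose and 2 fell with HDAC5 shRNA (21.7% called, beside 38.2%). Those that fell were JUP, the plakoglobin gene (-0.49, SE 0.08), and DSP, the desmoplakin gene (-0.30, SE 0.05). Those that rose were PKP4 (0.33, 1 of 4 probe sets), EVPL (0.24) and DSG1 (0.16).

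Of 43 probe sets of catenins and adherens junction partners, 1 rose with LSD1 shRNA (2.33% called, beside 3.81% of all probe sets, median 0.04). With HDAC5 shRNA, 4 rose and 9 fell (30.2% called, beside 38.2%, median -0.05). The actin-binding gene LIMA1 had 11.90, 12.20 and 12.15 with LSD1 shRNA, against 11.70, 11.40 and 11.41 with scramble (change 0.58, SE 0.11, limma adjusted p = 0.0446). It had 10.37, 10.37 and 10.39 with HDAC5 shRNA, against 11.02, 10.97 and 11.11 with scramble (change -0.66, SE 0.04, limma adjusted p = 3.18e-06). LIMA1 thus moved in the directions of CDH1 and CDH3, but its call with LSD1 shRNA was lost whichever array was left out (adjusted p = 0.0513 to 0.187). With HDAC5 shRNA, BAIAP2, an actin regulator gene, rose by 1.11 (SE 0.06, 3 of its 4 probe sets up) and CTNNBIP1, an inhibitor of beta-catenin binding to TCF, fell by 0.43 (SE 0.06).

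Genes of cadherin shedding and turnover had 40 probe sets, of which 14 fell and none rose with HDAC5 shRNA (35% called beside 38.2% of all probe sets, 35% down beside 19.2%, median -0.10), and none was called by limma with LSD1 shRNA (6 unadjusted, median 0.05). The receptor phosphatase gene PTPRM fell by 1.08 (SE 0.05, limma adjusted p = 6.68e-07). All 3 probe sets of the Src-family kinase gene FYN fell (between -0.82 and -0.73), as did all 3 of the sheddase gene ADAM17 (between -0.80 and -0.57).

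Among 38 probe sets of transcription factors and splicing regulators linked to the epithelial-mesenchymal transition, 6 rose with LSD1 shRNA (15.8% called, beside 3.81% of all probe sets) and all 6 belonged to TCF4, an E-protein gene with 7 probe sets. The most changed one, 212386_at, had 6.66, 7.31 and 6.70 with LSD1 shRNA, against 4.10, 4.01 and 4.33 with scramble (change 2.74, SE 0.19, limma adjusted p = 0.00111). Its scramble arrays were all under the lower quartile, so the size is not exact. The further TCF4 probe sets differed by 0.36 (the one not called) to 1.56. SNAI2, a known repressor of CDH1, had 7.22, 7.45 and 7.77 with LSD1 shRNA, against 7.65, 7.66 and 8.03 with scramble, and was not called (-0.30, limma adjusted p = 0.412). Nor were ZEB1 (-0.37, -0.32 and -0.10), SNAI1 (0.37), ZEB2 (0.47) and TWIST1 (0.06) called with LSD1 shRNA. With HDAC5 shRNA, 6 rose and 5 fell (28.9% called, beside 38.2%). The epithelial splicing regulator ESRP1 (-1.18, SE 0.12) and the epithelial factor ELF3 (-0.95, SE 0.11) fell. So did 1 probe set each of ZEB1 (-0.18) and TCF4 (-0.26), while SNAI2 rose (0.30, SE 0.07). The further ZEB1 probe sets differed by -0.09 and 0.16 and were not called. TCF3 rose by 5 of its 13 probe sets, by 0.70 (SE 0.06) for the most changed one. The 13 ran between -0.21 and 0.70.

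Of 31 probe sets of beta-catenin and TCF targets, 3 rose and 1 fell with LSD1 shRNA (12.9% called, beside 3.81% of all probe sets, median -0.15). With HDAC5 shRNA, 5 rose and 1 fell (19.4% called, beside 38.2%, median 0.05). RNF43, a feedback inhibitor of Wnt receptors, had 7.41, 7.65 and 7.56 with LSD1 shRNA, against 5.97, 5.92 and 6.01 with scramble (change 1.57, SE 0.09, limma adjusted p = 0.000591). LGR5 (1.17, SE 0.23, 1 of 2 probe sets) and BMP4 (0.92, SE 0.18) rose and SOX9 fell by 0.91 (SE 0.16, 1 of 2 probe sets) with LSD1 shRNA. The LGR5 probe set was above the quartile on 1 LSD1 shRNA array and on no scramble array, so its size is not exact. The calls of LGR5, BMP4 and SOX9 were each kept in 1 of the 6 fits that left out an array. With HDAC5 shRNA, MYC fell by 0.75 (SE 0.05). The 5 rises with HDAC5 shRNA were in CCND1 (0.54), LGR5 (0.28, under the quartile), BMP4 (0.26) and TCF7L2 (0.14 and 0.15). Those of CCND1 and LGR5 were each called in 1 of the 6 fits that left out an array. In the LSD1 comparison TCF4 and RNF43 were the 2 of 8 named list genes called whichever array was left out, and in the HDAC5 comparison 21 of 25 were. With 1 spread over 12 arrays, 8 of 8 stayed called with LSD1 shRNA and 15 of 25 with HDAC5 shRNA, JUP (adjusted p = 0.269), CELSR2 (0.233), SNAI2 (0.151) and CTNNBIP1 (0.0778) among those that did not.

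**Figure D5:**
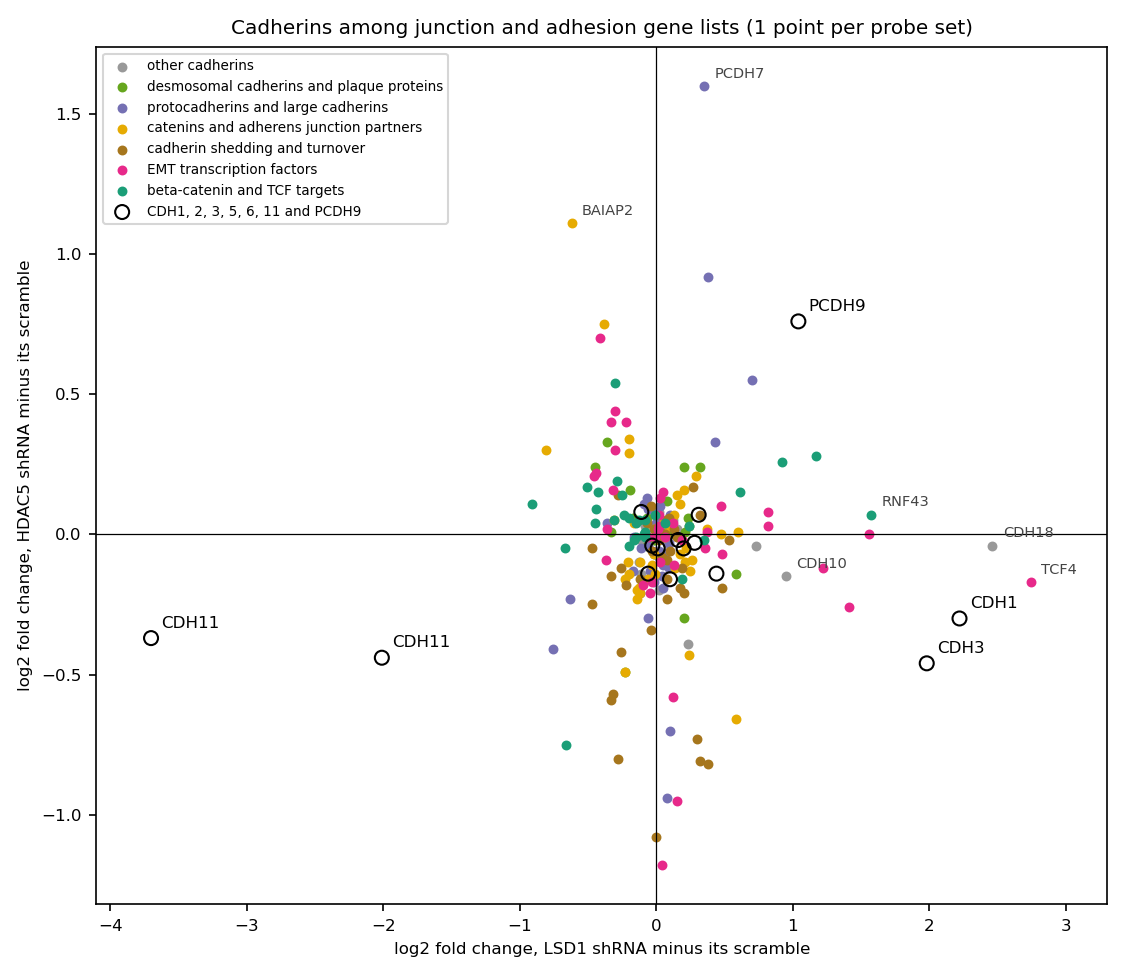
Each point is a probe set of the junction and adhesion lists, with its log2 fold change with LSD1 shRNA across and with HDAC5 shRNA upward; the cadherins and PCDH9 are circled in black. CDH1 and CDH3 lie at the right and below 0, CDH11 at the far left and PCDH9 at 1.04 across and 0.76 upward.

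Markers of other cell types that a culture could hold were summed up as mean log2 levels. The mean of 11 endothelial markers was 5.25 to 5.49 with LSD1 shRNA and 5.35 to 5.40 with scramble, and 4.68 to 4.75 with HDAC5 shRNA and 4.79 to 4.83 with scramble. That of 10 fibroblast markers was 5.45 to 5.55 with LSD1 shRNA and 5.21 to 5.22 with scramble, with LUM, FAP and POSTN under the quartile on all arrays, and 4.76 to 4.81 with HDAC5 shRNA and 4.97 to 4.98 with scramble. That of 11 luminal markers was 7.99 to 8.06 with LSD1 shRNA and 7.84 to 7.97 with scramble, and 7.38 to 7.45 with HDAC5 shRNA and 7.42 to 7.43 with scramble. That of 7 blood markers was 5.06 to 5.16 with LSD1 shRNA and 4.92 to 5.03 with scramble, and 4.51 to 4.60 with HDAC5 shRNA and 4.55 to 4.62 with scramble, with PTPRC, LYZ and SPI1 under the quartile on all arrays. The part of these shifts in the cadherin values was not tested.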

How the data were processed

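RNA of 12 samples was hybridised to Affymetrix 3′ arrays, 1 array per sample. Deposited values were log2 signals that the authors made with RMA in the affy package, per the submitters' processing notes. Software versions and whether the 12 arrays were normalized in 1 run were not given in the sources used here. RMA removes changes shared by most transcripts and compresses small ratios at low signal. The depth of arrays has no count equivalent, so their number limits the precision.

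Of 22277 probe sets, 62 controls were left out and 22215 tested; 19064 had 1 symbol, 1043 several and 2108 none. Symbols were updated through gene IDs to RefSeq names (GRCh38.p14), which matched 19052. Each shRNA was compared with its own scramble arrays by limma 3.58.1 in R 4.3.3 (lmFit, eBayes with trend), and the difference of the 2 changes in 1 fit of 12 arrays. The fits were tested on simulated data. The members and the 7 context lists were chosen with earlier results of these data known. Named genes were the 2 targets, all member probe sets, up to 4 called genes per list and comparison with the largest change, and the 3 genes most correlated with each changed member. Same-numbered arrays of the HDAC5 experiment did not deviate together (correlations of deviations -0.05, -0.21 and -0.14), so no pairing was used. Alternatives were 1 spread over 12 arrays, no trend, quantile normalization, median centring, a filter on dim probe sets, 1 value per gene, and leaving out each array. Value columns not used numbered 0.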

Additional observations from a re-analysis of the deposited data

Results flagged for a closer look

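The change with HDAC5 shRNA minus that with LSD1 shRNA passed the threshold for 6 cadherin probe sets. The value was -2.51 for CDH1 201131_s_at and -2.44 for CDH3 203256_at, which were lower with HDAC5 shRNA and higher with LSD1 shRNA. It was 3.32 for CDH11 207173_x_at and 1.57 for CDH11 207172_s_at, which were lower with both. It was -0.59 for CDH6 210601_at and -0.31 for CDH2 203440_at, neither of which was called in either experiment alone. Array groups of 3 are too small for a search for single outlying arrays.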

How the results depend on the processing

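With all 12 arrays sharing 1 spread, HDAC5 shRNA changed 5539 probe sets in place of 8489 and 1 of 15 cadherin probe sets in place of 5, and LSD1 shRNA changed 3485 in place of 847 and 7 cadherin probe sets in place of 5. With 1 value per gene, which tests fewer features, HDAC5 shRNA changed 5319 (brightest probe set) or 5130 (mean of probe sets, 3 of the cadherin genes), and 3803 or 3744 differed between the 2 responses in place of 5973. Leaving out 1 array, LSD1 shRNA changed 112 (without scramble C) to 1062 (without LSD1 shRNA replicate 2) probe sets and 1 to 5 cadherin probe sets: 1 without scramble B or LSD1 shRNA replicate 1, 2 without scramble C and 3 without scramble A. Without scramble B, LSD1 shRNA replicate 1 or LSD1 shRNA replicate 3 the whole table had 126, 189 and 230 calls, and without scramble A it had 329. With the replicate number as a block, HDAC5 shRNA changed 7621 probe sets and the same number of cadherin probe sets, 5. Same-numbered arrays did not deviate together, but 3 arrays per group cannot show that the samples were unpaired. The LSD1 experiment has letters against numbers, so no block was fitted there.

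Over the 3 comparisons of the 15 probe sets, 531 alternative values kept direction and side of the threshold, 36 lost the call and 5 gained it. In 30 an uncalled value near 0 changed sign, and the cause was not tested. For HDAC5 shRNA, CDH6 210602_s_at was 0.02 with quantile normalization and 0.01 with median centring, and leaving out arrays gave -0.10 to 0.08 for it, -0.11 to 0.00 for CDH1 201130_s_at, -0.09 to 0.01 for CDH2 203440_at and -0.12 to 0.03 for CDH5. For LSD1 shRNA, CDH2 203441_s_at was -0.04 with quantile normalization and -0.02 with centring, and leaving out arrays gave -0.05 to 0.08 for it, -0.18 to 0.06 for CDH5, -0.18 to 0.04 for CDH6 214803_at and 0.00 to 0.19 for PCDH9 219738_s_at. For the difference of the 2 changes, quantile normalization gave 0.03 for CDH2 203441_s_at and for CDH5, centring gave 0.00 and 0.05, and leaving out arrays gave -0.12 to 0.01, -0.10 to 0.14 and, for CDH6 214803_at, -0.18 to 0.05. Signals lay under the lower quartile on all 12 arrays for 6 of the 15 probe sets, and on some arrays for both CDH1 probe sets and CDH6 214803_at, which limits what can be said of their changes.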
